A study of Mus musculus with 6 samples.

Results

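The genes described here are 35 components of transforming growth factor beta (TGF-beta), bone morphogenetic protein (BMP) and activin signalling, out of 20416 genes measured. They were chosen by name: a gene entered if its probe sets carried exactly 1 symbol in the array annotation and that symbol was on the list, and all 35 were measured, by 461 probe sets. RNA came from MIN6-4N, a mouse insulinoma line that serves as a pancreatic beta cell model. The vector group is 1 clone stably carrying the empty plasmid pcDNA3.1, and the Meg3 group is 1 clone carrying the same plasmid with mouse Meg3, a long non-coding RNA. Each group has 3 cultures, 1 array each. Both clones went through 5 weeks of selection in 750 µg/ml G418 and were then grown in low glucose medium with 15% serum and 500 µg/ml G418, so both carry the plasmid and the drug. Since each group is a single clone, the tests compare cultures of 2 clones; an effect of Meg3 and any clonal difference cannot be told apart. The name of the Meg3 clone is not the same in the titles and in the growth protocol, and the descriptions speak of sorting, a step for which no protocol is given.

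Ligands of this family bind pairs of type I and type II serine/threonine kinase receptors. TGF-betas and activins pass the signal through Smad2 and Smad3, and BMPs through Smad1 and Smad5. Both kinds of SMAD join Smad4 and move to the nucleus, where the Id genes are typical BMP targets. Inhibitory SMADs, the co-repressors Ski and Skil, and secreted binding proteins such as follistatin restrain the signal. In islets the pathway is known for its part in beta cell identity, replication and insulin release, and serum in culture medium brings in ligands of its own.

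Values are log2 levels per gene, the mean of its probe sets on an array. The plasmid gene Meg3 read 5.63, 6.00 and 5.88 in vector cultures and 7.24, 7.91 and 7.53 in Meg3 cultures (1.72 higher, SE 0.19; limma with Benjamini-Hochberg adjustment, adjusted p = 0.00756). Vector replicate 2 and Meg3 replicate 1 stood apart: their probe sets scattered around the median of the other arrays with an SD of 0.85 and 0.63, against 0.42 to 0.48 on the remaining arrays. Of 12 beta cell markers, 11 had means above 6.66, the all-gene median, in either clone, with Ins2 at 12.54 ± 0.09 (SD, n = 3) and 12.60 ± 0.05 (SD, n = 3). The glucagon gene Gcg was also bright, at 12.82 and 12.66, and 3 of 5 markers of alpha, delta and PP cells (Gcg, Irx2 and Ppy) lay above that median in both clones. So did 2 of 5 ductal markers, the keratin gene Krt7 at 10.13 and 10.03 and the secreted Spp1 at 12.33 and 11.85. Endothelial and acinar markers (5 and 4 measured) all lay below that median in at least 1 clone, as did 8 of 9 fibroblast markers and 4 of 5 leukocyte markers. None of 45 markers was called by limma, beside 0.666% of all genes. An unadjusted p under 0.05 was found for 3 (Slc2a2, Ucn3 and Spp1), beside 6.96% of all genes. The mean level of the fibroblast list was 5.67 to 5.89 in vector cultures and 5.72 to 5.80 in Meg3 cultures.

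The sequences shown first belong to 4 pathway genes. Acvr1c and Itgb8 were called between the clones. Bmpr1a and Id2, a BMP receptor and a BMP target, had lower estimates and were not called. Each is the stretch of 250 bases before the start of transcription in RefSeq (GRCm38.p6), on the strand of the gene, which is the minus strand for all 4. They lie at chr2:58357759-58358008 (the more upstream of 2 starts listed), chr12:119238277-119238526, chr14:34502547-34502796 and chr12:25096093-25096342. Capitals mark the SMAD box CAGACA or the BMP response core GGCGCC, searched on both strands; these motifs do not overlap in any of the 4.
Acvr1c: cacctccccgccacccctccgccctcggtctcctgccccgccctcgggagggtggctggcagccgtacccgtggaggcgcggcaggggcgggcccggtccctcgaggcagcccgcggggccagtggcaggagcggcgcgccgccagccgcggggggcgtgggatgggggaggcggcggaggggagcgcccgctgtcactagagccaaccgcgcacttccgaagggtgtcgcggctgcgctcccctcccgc
Itgb8: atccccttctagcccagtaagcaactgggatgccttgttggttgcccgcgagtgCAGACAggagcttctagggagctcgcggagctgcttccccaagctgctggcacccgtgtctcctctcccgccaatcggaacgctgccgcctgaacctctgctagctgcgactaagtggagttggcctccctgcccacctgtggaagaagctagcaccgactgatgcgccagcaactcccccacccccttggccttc
Bmpr1a: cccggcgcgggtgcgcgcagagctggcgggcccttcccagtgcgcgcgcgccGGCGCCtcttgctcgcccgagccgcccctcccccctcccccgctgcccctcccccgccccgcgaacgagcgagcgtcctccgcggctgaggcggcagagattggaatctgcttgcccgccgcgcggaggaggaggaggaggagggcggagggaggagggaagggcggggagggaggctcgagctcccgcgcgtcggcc
Id2: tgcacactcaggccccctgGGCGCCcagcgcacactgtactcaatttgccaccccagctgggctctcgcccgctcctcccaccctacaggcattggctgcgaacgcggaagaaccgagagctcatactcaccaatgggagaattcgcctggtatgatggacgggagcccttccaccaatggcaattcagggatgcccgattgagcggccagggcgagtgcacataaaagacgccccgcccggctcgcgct
The SMAD box was found once, in the Itgb8 stretch, with its first base 196 bases before the start. The BMP response core was found once each in Bmpr1a and Id2, at 198 and 231 bases before the start, and the Acvr1c stretch held neither. Among all 32851 promoter stretches of this length, 17.1% held CAGACA and 9.59% held GGCGCC. Of the 35 genes, 25 had entries, with 31 stretches in all. Skil, which had the largest estimate of the 35, and Id1 were among those without an entry. CAGACA was found for 4 of the 25 (Bmpr1b, Ltbp1, Tgfb2 and Tgfbr1) and GGCGCC for 7 (Bmpr1a, Bmpr2, Id2, Ski, Smad5, Tgfbi and Tgfbr1). Counted by stretch, as the shares over all stretches are, these were 4 and 7 of the 31. The 8-base palindrome GTCTAGAC was found for 0 of them and in 0.167% of all stretches. G and C made up 79.6%, 62.4%, 78.8% and 62.8% of the Acvr1c, Itgb8, Bmpr1a and Id2 stretches. GGCGCC holds only those letters, and the part of base content in these shares was not tested. These are matches of letters in a short window, not binding sites.

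Between the clones, 0 of the 35 genes passed the test over all genes (limma, Benjamini-Hochberg adjusted p under 0.05), where 0.666% of all genes did. At an unadjusted p under 0.05 there were 4 lower (Skil, Tgfb1, Bmpr1a and Id2) and 1 higher (Tgfb2), beside 4.28% and 2.68% of all genes. Vector and Meg3 arrays were separated without overlap for 6 of the 35, beside 12.8% of the genes measured. Estimates were negative for 24 of 35 genes, or 68.6%, against 48.4% of all genes, with a median of -0.08 against 0.01. The 35 were chosen with earlier results of these data known, so these counts beside the shares of all genes are description only. The mean level of the 35 was 7.38, 7.38 and 7.41 on the vector arrays and 7.26, 7.27 and 7.26 on the Meg3 arrays. The SE of a difference had a median of 0.14 and the 95% interval a median half-width of 0.32, which is a 1.25-fold change. For 32 of 35 genes the interval lay within 1 of 0 on the log2 scale, which is a 2-fold change, and the exceptions were Skil, Id2 and Id3.

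**Figure D1:**
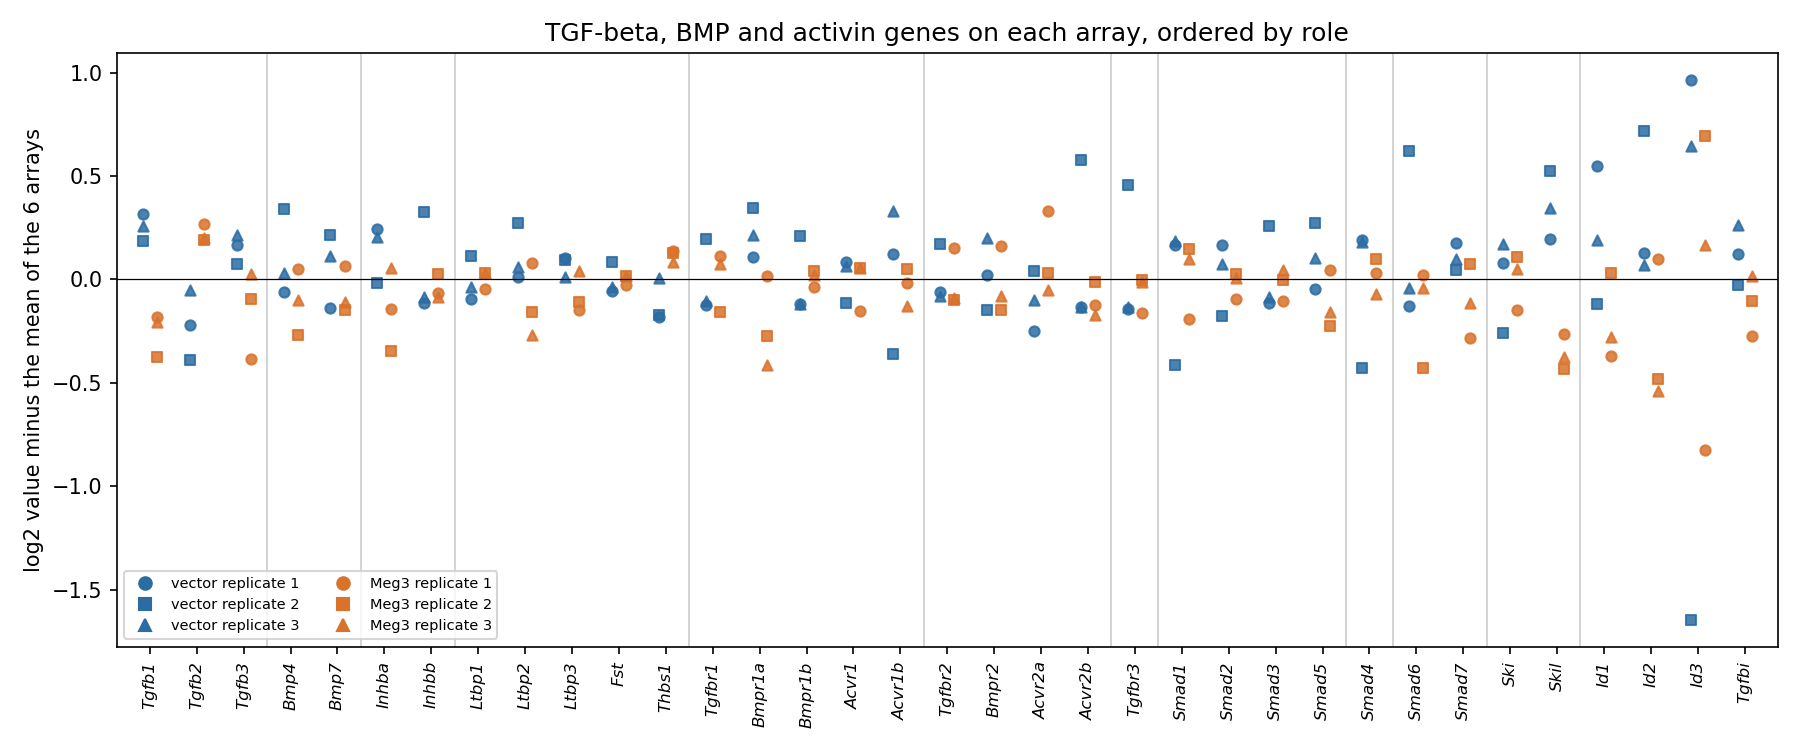
Log2 value of each of the 35 genes on each array, minus that gene's mean over the 6 arrays, with genes along the horizontal axis in order of role and grey lines between roles. Blue is vector and orange Meg3, and circles, squares and triangles are replicates 1, 2 and 3. Skil, Tgfb1 and Tgfb2 separate the colours, whereas Id3 spreads widest through vector replicate 2, which deviated by -2.45 from the other vector arrays.

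Among the TGF-beta ligands, estimates ran in opposite directions. Tgfb1, which encodes the most widely expressed isoform, read 7.59, 7.46 and 7.53 in vector cultures and 7.09, 6.90 and 7.07 in Meg3 cultures. All Meg3 arrays lay below all vector arrays (difference -0.51, SE 0.12, 95% interval -0.77 to -0.24; limma adjusted p = 0.148). All 9 of its probe sets were lower, by -1.27 to -0.08. Tgfb2, the isoform with a central place in embryonic development, read 7.53, 7.36 and 7.70 in vector cultures and 8.02, 7.94 and 7.95 in Meg3 cultures. Here all Meg3 arrays lay above all vector arrays (difference 0.44, SE 0.13; adjusted p = 0.309), with 10 of 13 probe sets higher. Tgfb3 read 6.25, 6.16 and 6.30 against 5.70, 5.99 and 6.11, again without overlap (-0.31, SE 0.14), but it was below the median of all genes.

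BMP and activin ligand genes gave small negative estimates. Bmp4, a ligand that patterns many embryonic tissues, read 5.58, 5.98 and 5.67 in vector cultures and 5.69, 5.37 and 5.54 in Meg3 cultures, with overlap (-0.21, SE 0.15). Bmp7 differed by -0.13 (SE 0.14). Both were dim, with means under 6.66 in either clone, and whether a decrease could be seen at such levels was not tested. Inhba, which encodes the subunit of activin A, was brighter and read 8.41, 8.15 and 8.37 against 8.02, 7.82 and 8.22. Meg3 replicate 3 lay above vector replicate 2, so the groups overlapped (-0.29, SE 0.14; limma adjusted p = 0.818), while all 4 probe sets were lower, by -0.53 to -0.05. Inhbb, the subunit of activin B, differed by -0.08 (SE 0.15).

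Genes for extracellular binding and activation had estimates on both sides of 0. Thbs1 encodes thrombospondin-1, which can activate latent TGF-beta. It read 5.56, 5.57 and 5.75 in vector cultures and 5.88, 5.87 and 5.83 in Meg3 cultures. The groups did not overlap (0.23, SE 0.11; limma adjusted p = 0.803), and 19 of 24 probe sets were higher, although the gene was dim. The latent TGF-beta binding proteins hold TGF-beta in the matrix: Ltbp1 differed by 0.01 (SE 0.12), Ltbp2 by -0.23 (SE 0.14) and Ltbp3 by -0.14 (SE 0.11). Ltbp3 was the 1 gene of this group with means over 6.66 in either clone. Fst, which encodes the activin trap follistatin, had a difference of 0.00 (95% interval -0.25 to 0.25).

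Of the 5 type I receptors among the 35, Bmpr1a (ALK3), a main BMP receptor, had the largest estimate. It read 9.79, 10.03 and 9.90 in vector cultures and 9.70, 9.41 and 9.27 in Meg3 cultures, so the groups did not overlap, though Meg3 replicate 1 came within 0.1 of vector replicate 1. The difference was -0.45 (SE 0.15, 95% interval -0.79 to -0.12; limma adjusted p = 0.413), and all 17 probe sets were lower, within the narrow range of -0.61 to -0.25. Estimates of the other type I receptors among the 35 were nearer 0. Tgfbr1 (ALK5), the TGF-beta receptor, differed by 0.02 (95% interval -0.30 to 0.35) and Acvr1 (ALK2) by -0.03 (-0.31 to 0.26). Bmpr1b (ALK6), which was dim, differed by 0.02 (SE 0.13). Acvr1b (ALK4), an activin receptor, differed by -0.07 (SE 0.18), with vector replicate 2 deviating by -0.58 from the other vector arrays. Without both arrays that stood apart, the Acvr1b difference was -0.27 (SE 0.11; limma adjusted p = 0.24).

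Type II receptors, which activate the type I partners, were not separated. Acvr2b, an activin receptor, read 6.08, 6.79 and 6.08 in vector cultures and 6.09, 6.20 and 6.04 in Meg3 cultures. Vector replicate 2 alone was high there, and the estimate of -0.21 (SE 0.20) has an interval of -0.67 to 0.25; its brightest probe set gave 0.37. Acvr2a, the related receptor, differed by 0.20 (SE 0.14) with 12 of 13 probe sets higher. Bmpr2 differed by -0.05 (95% interval -0.38 to 0.28). Tgfbr2, the receptor that TGF-beta signalling requires, was dim at 6.07 ± 0.14 (SD, n = 3) and 6.05 ± 0.14 (SD, n = 3). Its 10 probe sets ran from -0.50 to 0.57, with 5 lower and 5 higher, and the brightest gave 0.57. The co-receptor gene Tgfbr3 (betaglycan) read 5.84, 6.44 and 5.85 against 5.82, 5.98 and 5.97, with vector replicate 2 again the high array (-0.12, SE 0.18).

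Receptor-activated SMAD genes and Smad4 were not called. Smad5, a BMP SMAD, read 8.70, 9.02 and 8.85 in vector cultures and 8.79, 8.52 and 8.59 in Meg3 cultures; Meg3 replicate 1 lay within the vector range (-0.22, SE 0.14; limma adjusted p = 0.948). Smad1, the other BMP SMAD here, differed by 0.04 (SE 0.19). Smad2, a TGF-beta and activin SMAD, differed by -0.04 (95% interval -0.34 to 0.25). Smad3, its partner, was dim and differed by -0.04 (SE 0.14). The brightest Smad3 probe set differed by -1.08 and the remaining 12 by -0.42 to 0.33. Smad4, which all branches share, read 9.66, 9.04 and 9.65 against 9.50, 9.57 and 9.40, and the low array was vector replicate 2 (0.04, SE 0.18).

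Inhibitory SMAD genes, which are themselves induced by the pathway, had negative estimates at dim levels. Smad6 read 6.16, 6.91 and 6.25 in vector cultures and 6.31, 5.86 and 6.25 in Meg3 cultures, with wide overlap (-0.30, SE 0.22). Smad7 read 6.62, 6.49 and 6.54 against 6.16, 6.52 and 6.33, where Meg3 replicate 2 lay above vector replicate 2 (-0.22, SE 0.13). For Smad7, 1 of 8 probe sets differed by -1.45 and the remaining 7 by -0.26 to 0.30.

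Skil had the largest estimate of the 35 genes. It encodes SnoN, a co-repressor that binds SMADs and that TGF-beta signalling both degrades and induces. It read 8.48, 8.81 and 8.63 in vector cultures and 8.02, 7.85 and 7.91 in Meg3 cultures, so every Meg3 array lay below every vector array. The difference was -0.71 (SE 0.13, 95% interval -1.01 to -0.42), 1.64-fold, with limma adjusted p = 0.0607, just above the threshold of 0.05. All 12 probe sets were lower, by -1.45 to -0.25, but the brightest differed by only -0.36. Without vector replicate 2, when 1.71% of all genes were called, the difference was -0.63 and passed (adjusted p = 0.0375). That was the only 1 of 6 fits with 1 array left out in which it passed. Over those fits the difference ran from -0.79 to -0.63 and the limma adjusted p reached 0.354. Ski, its paralog, read 7.68, 7.34 and 7.77 against 7.45, 7.71 and 7.65 and differed by 0.01 (SE 0.15).

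**Figure D2:**
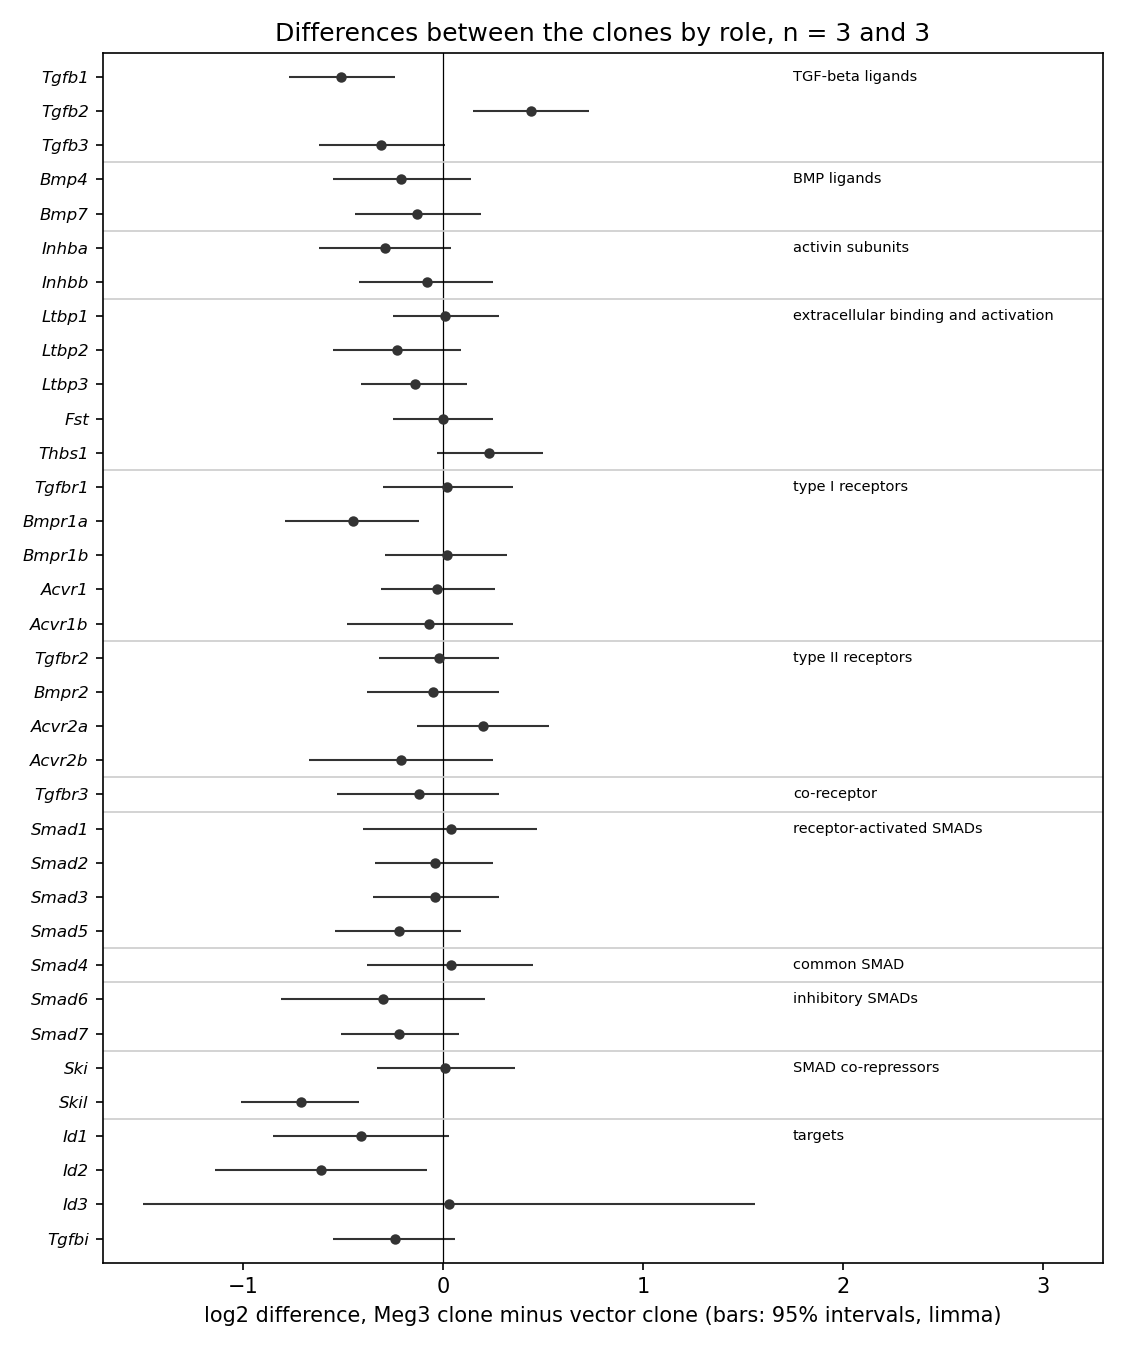
Log2 difference between the clones (Meg3 minus vector, horizontal axis) for the 35 genes, grouped by role, with points for estimates and bars for 95% intervals from limma with 3 cultures per clone. The intervals of Tgfb1, Bmpr1a, Skil and Id2 lie below 0 and that of Tgfb2 above it, and the interval of Id3 is the widest, from -1.50 to 1.56.

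The Id genes encode inhibitors of basic helix-loop-helix transcription factors and are read as targets of BMP signalling. Id2 read 9.97, 10.56 and 9.91 in vector cultures and 9.94, 9.36 and 9.30 in Meg3 cultures. Meg3 replicate 1 lay above vector replicate 3, so the groups overlapped (-0.61, SE 0.23; limma adjusted p = 0.573), and all 4 probe sets were lower. Id1 read 8.03, 7.36 and 7.67 against 7.11, 7.51 and 7.20, with Meg3 replicate 2 above vector replicate 2 (-0.41, SE 0.19; adjusted p = 0.758), and all 6 probe sets were lower. Id3 read 9.02, 6.41 and 8.70 against 7.23, 8.75 and 8.22, a difference of 0.03 (SE 0.66).

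The arrays that stood apart set the spread of Id3: vector replicate 2 deviated by -2.45 from the other vector arrays and Meg3 replicate 1 by -1.25 from the other Meg3 arrays. Without both arrays the Id3 difference was -0.37 (SE 0.17; limma adjusted p = 0.271), the opposite sign. In Id2 the same deviations were 0.62 and 0.60, and in Id1 they were -0.49 and -0.25. The part of array quality in these values was not tested. Id4, the remaining family member and not among the 35, was chosen after its values were seen. It read 6.45, 6.50 and 6.35 against 5.97, 6.07 and 5.92, without overlap (-0.45, SE 0.11; adjusted p = 0.217). Tgfbi, a matrix protein gene induced by TGF-beta, read 6.76, 6.61 and 6.90 against 6.36, 6.53 and 6.65 and overlapped (-0.24, SE 0.13).

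Without both arrays that stood apart, a setting chosen after seeing the data, 4 of the 35 were called by limma, all lower, where 5.44% of all genes were called and 4.01% called lower. These were Skil (-0.68, SE 0.10; adjusted p = 0.00476), Id2 (-0.60, SE 0.10; 0.00622), Tgfb1 (-0.58, SE 0.10; 0.0111) and Bmpr1a (-0.51, SE 0.10; 0.0207). Tgfb2 was higher by 0.33 (SE 0.10) and not called (adjusted p = 0.105). The arrays were left out for their spread and the others also entered the fit of all 6, so these calls are no separate evidence.

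**Figure D3:**
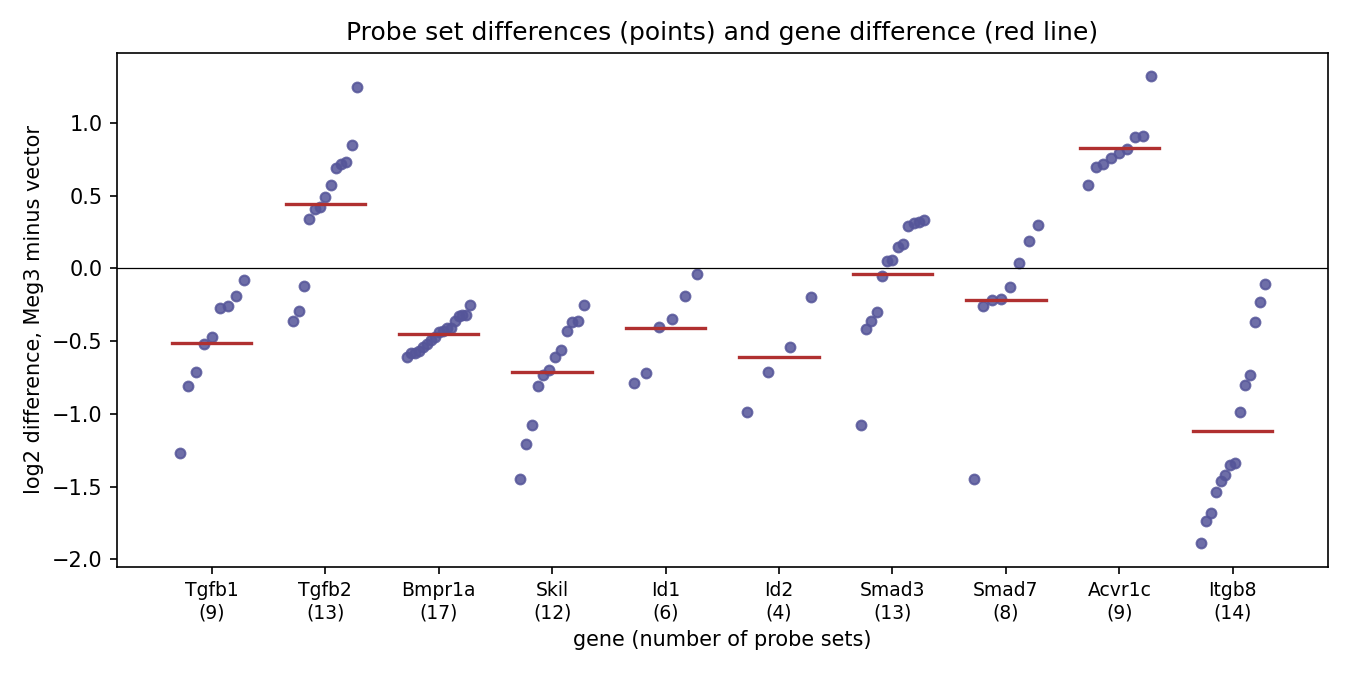
Log2 difference (Meg3 minus vector, vertical axis) of every probe set of 10 pathway genes, each point 1 probe set sorted within its gene, with a red line at the value of the gene. All probe sets of Tgfb1, Bmpr1a, Skil, Id1, Id2 and Itgb8 lie below 0 and all of Acvr1c above it, whereas Smad3 and Smad7 each have 1 probe set far below their others.

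Probe sets on this array each cover about an exon, so agreement among them gives a rough view of how evenly a gene differed. Bmpr1a was even across its 17 probe sets, whereas Tgfb1, Skil and Itgb8 ranged over more than 1 on the log2 scale. Single probe sets are imprecise, with an SE of up to 0.39 in Bmpr1a and 0.59 in Skil. The part of noise in these ranges was not tested. Tested singly over all probe sets with 1 symbol, 0 of the 461 probe sets were called by limma (lowest adjusted p = 0.241, in Tgfb1), and at the gene level 5 of 35 had an unadjusted p under 0.05, beside 6.96% of all genes.

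A wider list of 96 other genes of the pathway was set up by role, and 93 were measured. It was made with earlier results of these data known, so its counts beside the shares of all genes are description only. Of these, 1 was called higher and 1 lower (limma over all genes, beside 0.201% and 0.465% of all genes), with a median difference of 0.04 over the 93. Ligands (26 measured), antagonists (13), SMAD partners and regulators (19) and targets (18) had 0 called, with 1, 1, 2 and 2 at an unadjusted p under 0.05, which 6.96% of all genes had. The called genes were a receptor and an integrin of TGF-beta activation.

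Acvr1c (ALK7) rose. It encodes a type I receptor for nodal and activin B that is known from adipose tissue and islets, and it signals through Smad2 and Smad3. It read 9.01, 8.96 and 9.01 in vector cultures and 9.91, 9.82 and 9.76 in Meg3 cultures, with tight groups far apart. The difference was 0.83 (SE 0.11, 95% interval 0.58 to 1.09; limma adjusted p = 0.0172), or 1.78-fold, and all 9 probe sets were higher, by 0.57 to 1.32. With 1 array left out, the call held only without vector replicate 2 (adjusted p = 0.0107) and was lost without each of the other 5 (0.0727 to 0.129), while the difference stayed between 0.79 and 0.87. It was also lost with the median of the probe sets (0.0928) or the brightest (0.116).

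Acvr1c lies between Cytip and Acvr1 among the protein-coding genes of that chromosome in RefSeq. Acvr1 differed by -0.03, and Cytip is not among the genes listed here. A part of chromosomal position was not tested.

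Itgb8 fell. It encodes the beta 8 subunit of an integrin that releases active TGF-beta from its latent complex. It read 7.74, 8.07 and 7.88 in vector cultures and 6.78, 6.67 and 6.87 in Meg3 cultures, again far apart. The difference was -1.12 (SE 0.13, 95% interval -1.42 to -0.82; limma adjusted p = 0.00975), a 2.17-fold lower level, and all 14 probe sets were lower, by -1.89 to -0.11. The brightest probe set was the one that differed by -0.11, and by it alone the gene was not called (adjusted p = 0.986). The call was also lost without vector replicate 3 (0.0613), Meg3 replicate 2 (0.0872) or Meg3 replicate 3 (0.0666).

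Other genes that the naming rule took from the wider list did not pass. Rgmb, a BMP co-receptor gene, read 7.31, 7.38 and 7.32 against 8.07, 7.73 and 7.98, with all Meg3 arrays higher (0.59, SE 0.13; limma adjusted p = 0.123). Its 5 probe sets were uneven, with 4 higher and a range up to 1.34, and with the median of the probe sets on each array the difference was 0.00. Tgif1, a co-repressor that like Skil binds SMADs, read 8.76, 8.22 and 8.67 against 7.62, 7.84 and 7.82, with all Meg3 arrays lower (-0.79, SE 0.16; adjusted p = 0.111). Grem1, a secreted BMP antagonist gene, read 7.95, 7.57 and 7.78 against 7.29, 7.17 and 7.24, also without overlap (-0.53, SE 0.13; adjusted p = 0.202).

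Fn1 had the largest estimate of the wider list. It encodes fibronectin, a matrix protein induced by TGF-beta, and read 7.95, 6.52 and 8.02 in vector cultures and 6.02, 6.07 and 6.06 in Meg3 cultures. Vector replicate 2 deviated by -1.46 from the other vector arrays but lay above every Meg3 array (-1.45, SE 0.36; limma adjusted p = 0.201), and 43 of 48 probe sets were lower. Without vector replicate 2, when 1.71% of all genes were called, the Fn1 difference was -1.94 (limma adjusted p = 0.000561). Tgif1 (-0.96; 0.00839) and Grem1 (-0.63; 0.0368) then passed too. Fn1, Tgif1 and Grem1 each passed in only 1 of 6 fits with 1 array left out. Over those fits their limma adjusted p reached 0.699, 0.443 and 0.706. Of the fibroblast and stellate cell markers, 0 of 9 were called by limma, beside 0.666% of all genes. An unadjusted p under 0.05 was found for 0 of them, beside 6.96% of all genes. Col1a1 differed by -0.04 (SE 0.12).

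**Figure D4:**
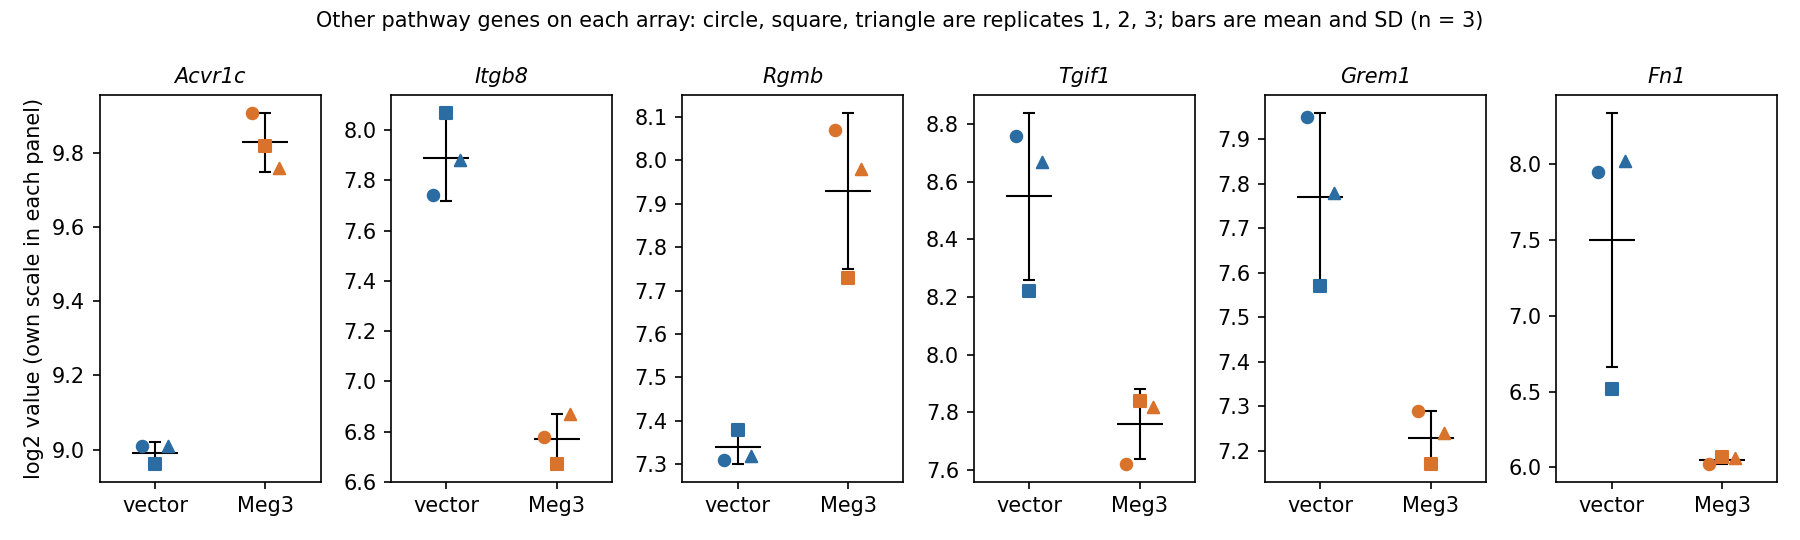
Log2 values of 6 pathway genes outside the 35 on each array, a panel per gene with its own vertical scale that does not start at 0. Circles, squares and triangles are replicates 1, 2 and 3, and bars are the mean and SD of 3 cultures. The groups do not overlap in any panel, and the low vector point of Fn1, at 6.52, is vector replicate 2.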

How the data were processed

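RNA from 3 cultures of each clone was hybridised, 1 array per culture, from 6 µg of total RNA per the labels' protocols. What the authors deposited is a log2 value for each probe set, and the submitters' processing notes name RMA and Partek. Versions and genome build: not given in the sources used here. Of 241419 probe sets, 212097 carried 1 symbol and were averaged into 20416 genes; listed symbols were matched directly or through RefSeq synonyms. Array medians of the deposited values ran from 7.02 to 7.19, and centring them and a second quantile normalization were among the alternatives. Precision is limited by the number of arrays.

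In R 4.3.3, limma 3.58.1 fitted Meg3 minus vector by lmFit and eBayes, without filter or covariate. P-values were two-sided and adjusted over all genes by Benjamini-Hochberg, and a gene was called at an adjusted p under 0.05. These fits were first checked with simulated arrays. They called 59 of 100 genes simulated with a log2 difference of 1 and 93 of 100 with a difference of 2. Of 20216 genes simulated without a difference, 8 were called. Differences between 0 and 1 were not simulated. The members and lists were chosen with earlier results of these data known. The naming rule gave every member, with all arrays for those with an unadjusted p under 0.05, without overlap, largest in their role, or Id genes. From the wider list it took called genes and up to 3 further ones per direction with an unadjusted p under 0.05 and a higher group mean above the median. Of that list, 3 genes are not analysed here. Alternatives covered normalization, probe set summary, variance estimation, array weights, a replicate block and single arrays.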

Additional observations from a re-analysis of the deposited data

How the results depend on the processing

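Across 17 alternatives, 0 of the 35 genes were called by limma in all but 4: array weights estimated gene by gene (4 called), the default array weights of limma (9), leaving out vector replicate 2 (1, Skil) and leaving out both arrays that stood apart, chosen after seeing the data (4). In leave-one-out fits the number called thus ran from 0 to 1. Gene-by-gene array weights called the same 4 genes, Skil, Tgfb1, Id2 and Bmpr1a, giving vector replicate 2 a weight of 0.16. They were used because the default estimate stopped before its tolerance, with a weight of 10.48 for vector replicate 3. The default, added after seeing the data, called Acvr1b, Id1, Inhba, Tgfbi (lower) and Tgfb2 (higher) as well. Of all 20416 genes, 136 were called; this moved to 58 with the median of probe sets, 40 with the brightest, 1246 with gene-by-gene and 2682 with default array weights, 1111 without both arrays that stood apart, and 22 (without Meg3 replicate 3) to 349 (without vector replicate 2) with 1 array left out. The 2 wider pathway genes became 1 with the median of probe sets, 0 with the brightest, 8 with gene-by-gene and 19 with default array weights, 6 without both arrays, and 0 to 5 with 1 array left out. The median of the 35 differences, -0.08, became -0.16 with the median of probe sets, -0.14 with either kind of array weights, and -0.13 to -0.07 with 1 array left out. Members lost to a filter or summary were few: 33 of 35 remained without the dimmest 30% of genes and 34 with brighter probe sets, the latter added after seeing the data. Among the 35, differences not called changed sign in 92 of 592 comparisons, in 19 genes whose size with all arrays was at most 0.30.

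With the replicate number as a block, 0 of the 35, 0 of the wider list and 30 of all genes were called by limma, and Acvr1c (adjusted p = 0.187) and Itgb8 (0.0949) were lost. The labels do not say that a number pairs cultures, and deviations of same-numbered arrays correlated at -0.61, -0.63 and 0.28, with no array correlating best with its own number.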
